A study of Homo sapiens with 9 samples.

Results

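miR-21 is a microRNA (miRNA) whose hairpin yields a guide strand, hsa-miR-21-5p, and a passenger strand, hsa-miR-21-3p, called miR-21-5p and miR-21-3p here. Both arms were followed through an affinity purification of miRNAs on the 3'UTR of PD-L1, the immune checkpoint ligand. They were found by name in the count table, as 2 of 2652 mature miRNA names, and both were among the 408 names that passed the filter on low counts. The libraries were made from ES-2, a long-established ovarian cancer line, labelled wild type and untreated in every group. In this purification (miTRAP), a bait RNA with MS2 loops is held on amylose resin by a fusion of maltose-binding protein and MS2-binding protein, incubated with cell lysate and eluted with maltose. The 9 libraries formed 3 groups of 3 replicates, the lysate before trapping (input), the eluate of a bait with the MS2 loops alone (MS2 control) and the eluate of a bait carrying the PD-L1 3'UTR (PD-L1 eluate). The baits were immobilized in different amounts, and between the trapped groups the amount cannot be told apart from the sequence. The study's methods call its replicates biological, while the labels of these libraries do not state separate cultures, so p-values measure the spread between these libraries.

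A miRNA hairpin is cut by Dicer into a duplex, and the strand that Argonaute keeps, the guide, pairs with target mRNAs mainly through its seed, bases 2 to 8. The other strand, the passenger, is mostly discarded, so the ratio of the arms in a cell describes strand choice and strand survival. miR-21-5p is known as an oncogenic miRNA that is abundant in many solid tumours and represses tumour suppressors such as PDCD4.

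The mature sequence of miR-21-5p is shown with the only other RefSeq mature miRNA of the same seed, miR-590-5p, because the seed is the part by which a 3'UTR would select them. Capitals mark bases 2 to 8.
miR-21-5p: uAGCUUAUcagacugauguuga
miR-590-5p: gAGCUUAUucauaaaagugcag
The seeds were identical and the first bases differed. Each of these miRNAs is 22 bases long with 8 G or C bases. On GRCh38.p14, miR-21-5p lies on the forward strand of chromosome 17 (chr17:59841273-59841294). It takes bases 8 to 29 of the 72-base MIR21 hairpin (chr17:59841266-59841337), which lies inside the span of VMP1, a gene of autophagy. In GENCODE v44 lifted to GRCh37, the hairpin lay on the VMP1 strand and within an exon of 10 of the 20 annotated VMP1 transcripts, in 8 of them within a UTR. miR-590-5p lies on the forward strand of chromosome 7 (chr7:74191213-74191234).

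PD-L1 is encoded by CD274, whose 3'UTR was searched for matches to the miR-21-5p seed in its longest annotated form, 2704 bases of transcript CD274-201. It held 0 copies of ATAAGCTA (8mer), ATAAGCT (7mer-m8), TAAGCTA (7mer-A1) and TAAGCT (6mer), of which the shorter are contained in the 8mer. Only the mRNA strand was searched. The seed of the passenger strand was not searched, so the search says nothing about sites for that arm. Among the first 2704 bases of 4557 human 3'UTRs of at least that length, 4.37% held the 8mer, 14.9% the 7mer-m8, 12.4% the 7mer-A1 and 42.9% the 6mer. The search says only that these letters are not in this window. How much of the 3'UTR the bait carried was not analysed here.

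The input libraries held 3794799 to 5983577 miRNA counts, the MS2 control libraries 1156261 to 2236535 and those of the PD-L1 eluate 672824 to 1237652. Of 17 miRNAs listed as markers of blood, liver, muscle, neurons and epithelium, 17 were in the table. Their summed level was 191 to 247 counts per 1e+06 in the input, 541 to 774 in the MS2 control and 684 to 4280 in the PD-L1 eluate, where replicate 1 held the highest value. By class, blood markers summed to 151 to 201 and epithelial markers to 31 to 42 in the input. The neuronal miR-124-3p, miR-133a-3p of muscle, miR-144-3p of blood and miR-429 of epithelium were at 0 in every input library. In PD-L1 replicate 1, muscle markers reached 2093 and blood markers 1723 counts per 1e+06. PD-L1 replicate 1 stood apart in these markers. The edgeR tests of the miRNAs and hairpins named here were therefore also run without it, which left 469 miRNAs that passed the filter. By chi-square per degree of freedom, replicate 1 differed from replicates 2 and 3 more than these did from each other in every group. Replicate 1 of the input and of the MS2 control was left out only for the results recomputed under the alternative settings. The part of these markers in the results was not tested.

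miR-21-5p was the most abundant miRNA of the input and held a smaller share in both eluates. It took 34.5%, 39.1% and 38.5% of all miRNA counts in input replicates 1, 2 and 3. In the MS2 control it took 11.9%, 17.4% and 17.9%, and in the PD-L1 eluate it took 17.1%, 16.7% and 16.7%. Every input library thus lay above every eluate library, whereas the PD-L1 libraries lay within the range of the MS2 control. By rank, miR-21-5p was the first miRNA in each input library and each PD-L1 library, behind 2 others in MS2 control replicate 1 and behind let-7i-5p in replicates 2 and 3. These shares rest on 112673 to 2301778 reads, and the widest exact 95% binomial interval was 16.66% to 16.84%, for PD-L1 replicate 2. PCR copies are not independent molecules, so such intervals account for the error of counting alone.

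miR-21-3p was rare in every library, and it held its largest share in the PD-L1 eluate. It had 597, 732 and 1278 reads in the input, or 0.0118%, 0.0193% and 0.0214% of the counts. In the MS2 control it had 93, 311 and 137 reads, or 0.00749%, 0.0139% and 0.0118%. In the PD-L1 eluate it had 386, 241 and 541 reads, or 0.0312%, 0.0358% and 0.0440%. By share, the PD-L1 libraries lay above all other libraries, and the MS2 control libraries overlapped the input. Against the MS2 control, 32.6% of the miRNAs tested lay higher without overlap on the TMM-scaled counts used below. How many lay above the input in this way was not counted. On that scale input replicate 3, at 288 counts per 1e+06, was above PD-L1 replicate 1, at 273. The rank of miR-21-3p among all miRNAs was 111 to 127 in the input, 130 to 181 in the MS2 control and 96 to 120 in the PD-L1 eluate.

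**Figure D1:**
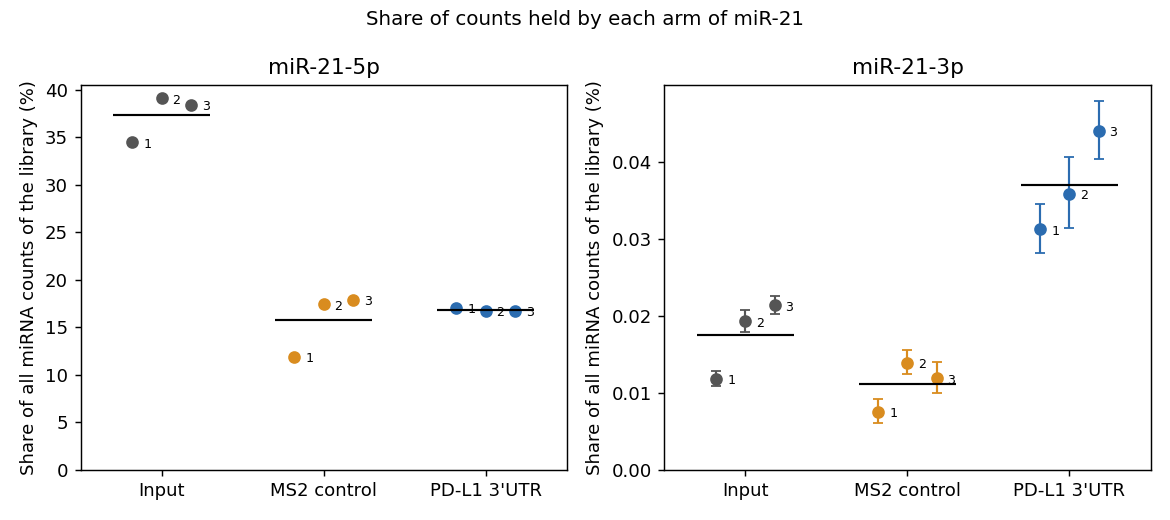
Share of all miRNA counts (%, vertical axis, from 0) held by miR-21-5p (left) and miR-21-3p (right) in each library, with replicate numbers, exact 95% binomial intervals as bars and the group mean as a line. The mean share of miR-21-5p was 37.4% in the input, 15.7% in the MS2 control and 16.9% in the PD-L1 eluate. By share, the 3 PD-L1 points of miR-21-3p sit above the other 6, which was not so for the input on the TMM scale.

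Whether the 3'UTR retained either arm beyond what loops and resin held was asked by setting the PD-L1 eluate against the MS2 control. Counts were scaled by TMM factors, which assume that most miRNAs do not change, and tested with edgeR's quasi-likelihood test, with Benjamini-Hochberg adjustment over the 408 miRNAs and a threshold of 0.05. miR-21-3p rose, whereas no change of miR-21-5p was called. In this comparison edgeR called 31.4% of the 408 miRNAs higher and 28.7% lower, so the call of 1 of the 2 arms is no result about the pair. Most of the 408 miRNAs were thus called changed, as also in both comparisons with the input below. By these calls the assumption behind TMM was not met, so values on library totals are given as well.

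miR-21-3p reached 329.7 CPM ± 59.9 (TMM-scaled CPM, counts per 1e+06, SD, n = 3) in the PD-L1 eluate, against 95.7 CPM ± 32.3 in the MS2 control. The log2 fold change was 1.78 ± 0.31 (SE), or 3.44-fold, with an adjusted p of 0.000488 in edgeR's test. Each of the 3 PD-L1 libraries was above each MS2 control library, as was so for 32.6% of the miRNAs tested. Among the 408 miRNAs its log2 fold change was the 79th highest. Without PD-L1 replicate 1 the log2 fold change was 1.93 ± 0.31 (edgeR, adjusted p of 0.000199). Leaving out 1 library at a time, it was lowest without MS2 control replicate 1, at 1.54.

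miR-21-5p had 150049 CPM ± 986 in the PD-L1 eluate and 135627 CPM ± 34635 in the MS2 control. The spread of the MS2 control came from its replicate 1, at 95651 CPM against 154634 and 156597 in replicates 2 and 3. The log2 fold change was 0.15, with a 95% interval from -0.23 to 0.52 and an adjusted p of 0.475 in edgeR's test. The interval spans no change, and its upper end allows a rise of up to 0.52. Without MS2 control replicate 1 the log2 fold change was -0.052, and without PD-L1 replicate 1 it was 0.18.

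Against the input, miR-21-5p fell in the PD-L1 eluate, and no change of miR-21-3p was called. Here 34.1% of the 408 miRNAs were called higher and 32.4% lower (139 and 132), and on library totals without TMM factors the split was 192 and 90. miR-21-5p had 492804 CPM ± 30308 (SD, n = 3) in the input and was 3.28-fold lower in the PD-L1 eluate, a log2 fold change of -1.72 ± 0.17 (SE, edgeR, adjusted p of 1.31e-05), and on library totals the value was -1.15. The 3 PD-L1 libraries were all below the 3 input libraries, as was so for 37.5% of the miRNAs tested. Without PD-L1 replicate 1 the value was -1.77 (SE 0.20, edgeR, adjusted p of 1.21e-05).

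miR-21-3p had 231 CPM ± 66.9 in the input, where replicates 1, 2 and 3 held 157, 247 and 288 CPM. The PD-L1 libraries held 273, 323 and 393 CPM, so input replicate 3 overlapped PD-L1 replicate 1 on this scale. The log2 fold change was 0.52, with a 95% interval from -0.14 to 1.17 and an adjusted p of 0.146 in edgeR's test. It was 0.58 without PD-L1 replicate 1 (edgeR, adjusted p of 0.120). The call differed with the scaling, and on library totals miR-21-3p rose by a log2 fold change of 1.08 (SE 0.28, edgeR, adjusted p of 0.00563). That scaling moved the median change over the 408 miRNAs from 0.04 to 0.60 (log2).

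What loops and resin retain on their own was read from the MS2 control against the input. Both arms fell, in a comparison that called 32.8% of the 408 miRNAs higher and 37.0% lower (134 and 151), against 199 and 104 on library totals. miR-21-5p was 3.63-fold lower in the MS2 control, with a log2 fold change of -1.86 ± 0.17 (SE, edgeR, adjusted p of 6.84e-06), and the groups did not overlap, as for 39.7% of the miRNAs tested. On library totals this log2 fold change was -1.25 (edgeR, adjusted p of 3.20e-05). miR-21-3p was 2.40-fold lower, with a log2 fold change of -1.26 ± 0.30 (SE, edgeR, adjusted p of 0.00349). The fall of miR-21-3p was not called with library totals, where it stood at -0.65 (edgeR, adjusted p of 0.0553) and the median of all miRNAs moved from 0.02 to 0.65. The libraries give shares, not amounts, so less of an arm and more of the other miRNAs cannot be told apart.

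**Figure D2:**
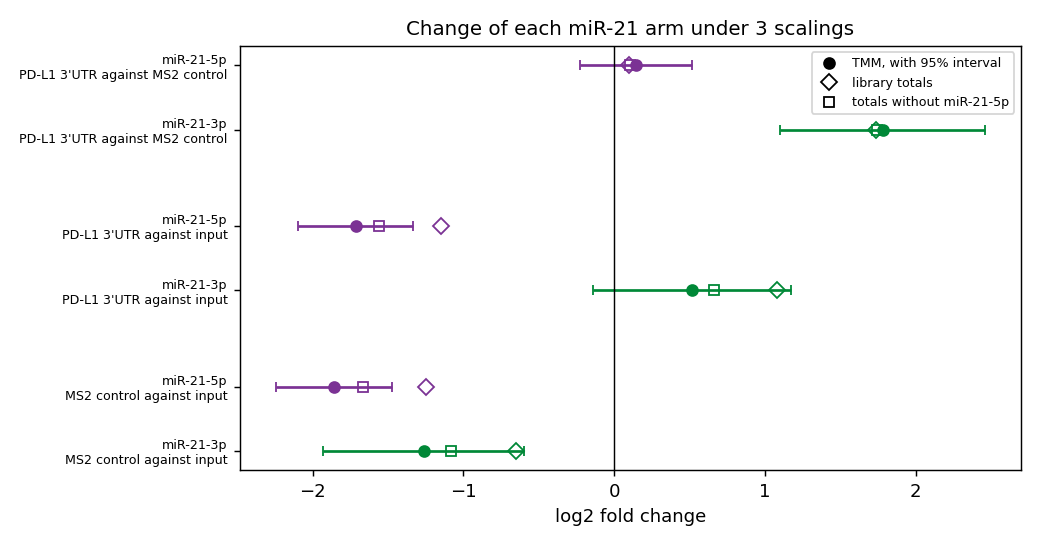
log2 fold change (horizontal axis) of miR-21-5p (purple) and miR-21-3p (green) in each comparison. Filled circles are TMM-scaled values with 95% intervals, diamonds use library totals and squares use library totals without miR-21-5p. For the PD-L1 eluate, the miR-21-3p values against the MS2 control lie at 1.78 (TMM) and 1.74 (each of the other scalings), and the miR-21-5p values against the input lie at -1.72, -1.15 and -1.56.

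Since miR-21-5p made up such a part of the input, its smaller share in the eluates goes with a larger summed share of the other miRNAs. When library totals were taken without miR-21-5p, its log2 fold change against the input was -1.56 in the PD-L1 eluate and -1.67 in the MS2 control. On that scale miR-21-3p stood at 0.66 (edgeR, adjusted p of 0.0736) and -1.08 (edgeR, adjusted p of 0.00916), respectively.

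The ratio of the arms within a library depends on no scaling, and it gives the test of whether the arms changed differently. miR-21-5p outnumbered miR-21-3p by 2925, 2028 and 1801 to 1 in input replicates 1, 2 and 3. In the MS2 control the ratios were 1591, 1254 and 1511 to 1. In the PD-L1 eluate they were 548, 468 and 380 to 1. All 3 PD-L1 ratios lay below the other 6, and the MS2 control ratios were all below those of the input. Ratios that were lower without overlap were found in 34.7% of 101 hairpins against the MS2 control, in 31.7% against the input, and in 39.6% for the MS2 control against the input.

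Put the other way, miR-21-3p made up 3.42, 4.93 and 5.55 of every 10000 miR-21 reads in the input. It made up 6.28, 7.97 and 6.62 in the MS2 control and 18.2, 21.3 and 26.2 in the PD-L1 eluate. The exact 95% intervals of the PD-L1 libraries reached down to 16.5, and those of the MS2 control reached up to 8.90, so these groups were also separated beyond counting error.

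**Figure D3:**
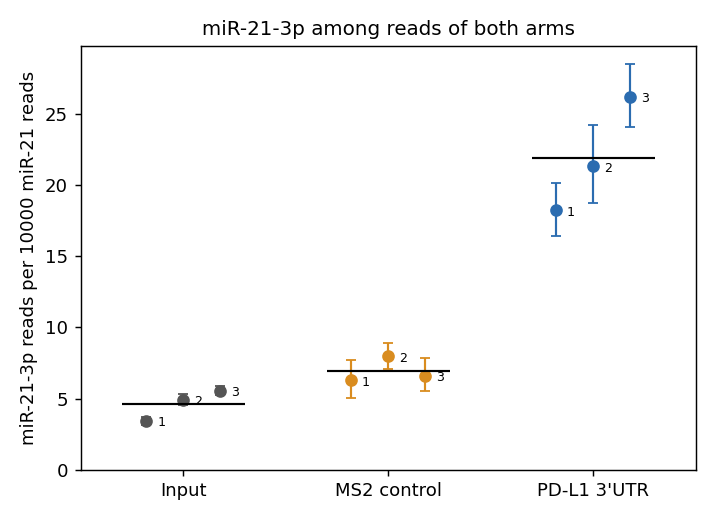
miR-21-3p reads per 10000 reads of both miR-21 arms (vertical axis, from 0) in each library, with replicate numbers, exact 95% binomial intervals as bars and the group mean as a line. The means were 4.63 in the input, 6.96 in the MS2 control and 21.9 in the PD-L1 eluate.

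The ratio was tested with edgeR on the paired counts of both arms over the 101 hairpins whose arms both passed the filter, adjusted over those hairpins. It was 3.13-fold lower in the PD-L1 eluate than in the MS2 control, a log2 change of -1.65 ± 0.25 (SE, edgeR, adjusted p of 6.61e-06). Against the input it was 4.78-fold lower, at -2.26 ± 0.25 (SE, edgeR, adjusted p of 8.14e-08). Without PD-L1 replicate 1 these changes were -1.77 and -2.39. An exact two-sided permutation test of 3 against 3 libraries gave p = 0.1 for each comparison, the smallest it allows.

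Between the MS2 control and the input, the ratio in the MS2 control was 1.53-fold lower, with a log2 change of -0.61 ± 0.25 (SE, edgeR, adjusted p of 0.0332). This call was lost without input replicate 1 (-0.41, adjusted p of 0.102), without MS2 control replicate 2 (-0.51) or 3 (-0.65), and without PD-L1 replicate 2 or 3 (-0.61 each, through the shared estimate of spread). In this comparison edgeR called the ratio lower in 37.6% of the hairpins and higher in 33.7%.

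Shifts of the arm ratio were common among hairpins. The 5p to 3p ratio fell in 34.7% of the 101 hairpins and rose in 36.6% from the MS2 control to the PD-L1 eluate, and it fell in 29.7% and rose in 34.7% from the input to the PD-L1 eluate. The change of miR-21 was therefore among those of many hairpins, and by size it was the 59th of 101 against the MS2 control and the 43rd against the input. The bias itself was extreme. By size of the mean log2 ratio, miR-21 ranked 5 of the 101 hairpins in the input, 3 in the MS2 control and 9 in the PD-L1 eluate. Another 23 hairpins had arms that differed over 100-fold in the input. With miR-21 among these 24, the ratio of abundant to rare arm fell from the MS2 control to the PD-L1 eluate in 10 and rose in 11, with a median log2 change of -0.15. From the input to the PD-L1 eluate it fell in 16 and rose in 2, with a median of -2.42, beside -2.26 for miR-21. From the input to the MS2 control it fell in 19 and rose in 3, with a median of -1.50, beside -0.61 for miR-21. Over all 101 hairpins this ratio fell in 40 and rose in 25 from the input to the PD-L1 eluate, and fell in 45 and rose in 27 from the input to the MS2 control. The 24 hairpins and the abundant arm were chosen by the input ratio, so falls from the input are favoured by that choice. The comparison of the trapped groups uses the same 24 hairpins and abundant arms, but the change itself holds no input value.

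Of the 6 hairpins with most input reads, miR-21 was the first. From the MS2 control to the PD-L1 eluate, the log2 change of the 5p to 3p ratio was -1.65 for miR-21, -0.99 for miR-100, -4.34 for let-7i and -1.66 for miR-10a, all called by edgeR. For miR-30a it rose by 1.40, and for miR-221, whose 3p arm is the abundant one, it was 0.42 and not called (edgeR, adjusted p of 0.228). Against the input, the values were -2.26 for miR-21, -5.46 for miR-100, -2.89 for let-7i, -2.58 for miR-10a and -1.17 for miR-221, and the ratio of miR-30a was higher. Without PD-L1 replicate 1 each of these 6 ratios stayed on its side of the threshold in both comparisons, with let-7i moving most, to -3.92 and -2.47.

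**Figure D4:**
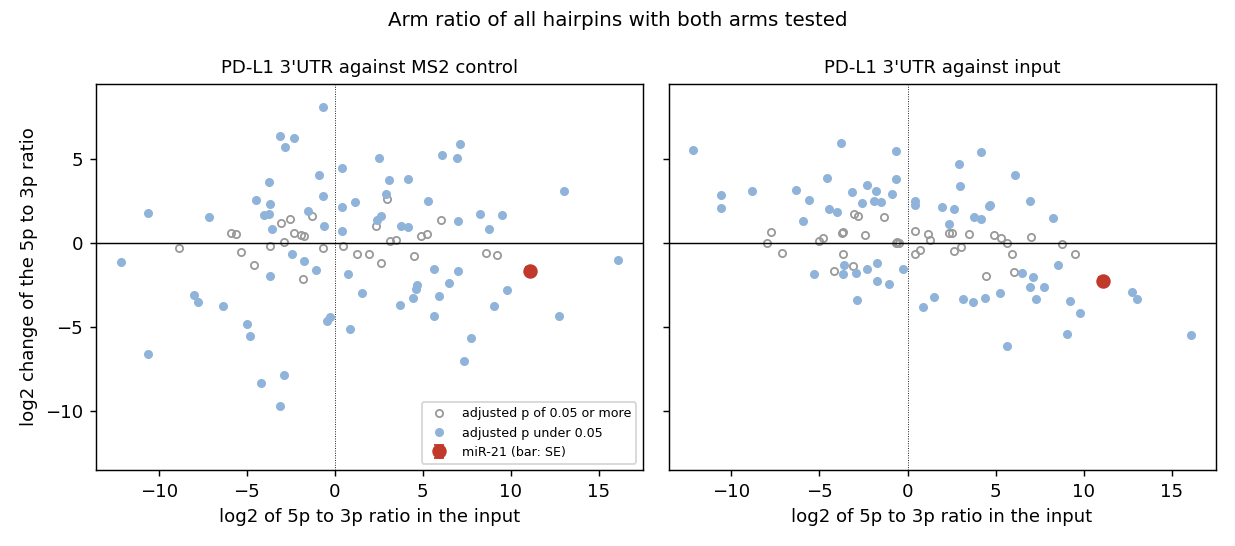
log2 change of the 5p to 3p ratio (vertical axis) against the log2 of that ratio in the input (horizontal axis) for 101 hairpins, with miR-21 in red with its SE. Filled blue points passed an adjusted p of 0.05 in edgeR and open points did not. miR-21 lies far to the right at 11.10 and at -1.65 against the MS2 control (left) and -2.26 against the input (right), and the right panel has the input on both axes.

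The arms followed different miRNAs across the libraries. By Pearson's r of log2 CPM over the 9 libraries, among 338 other miRNAs with a mean of at least 10 CPM, the miRNAs most like miR-21-5p were miR-221-5p (0.988), miR-16-2-3p (0.986) and miR-505-3p (0.981). miR-221-5p fell from 12594 CPM ± 2873 (SD, n = 3) in the input to 1322 CPM ± 301 for the MS2 control and 1675 CPM ± 304 for the PD-L1 eluate. miR-16-2-3p had 1160.1 CPM ± 117 in the input and 333 CPM in each eluate group. For miR-21-3p they were miR-101-3p (0.964), miR-15b-5p (0.962) and miR-30a-5p (0.954). miR-101-3p was lowest in the MS2 control, at 771 CPM ± 66.7, against 1752 CPM ± 337 in the input and 2327 CPM ± 56.9 in the PD-L1 eluate. Between the arms r was 0.35, and miR-21-3p was 131st in likeness to miR-21-5p. The 9 libraries form 3 groups, so these coefficients describe the order of the groups and carry no test.

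miR-590-5p, which shares the miR-21-5p seed, was nearly absent from the lysate. It had 1, 2 and 2 reads in the input, 12, 19 and 5 in the MS2 control and 37, 18 and 19 in the PD-L1 eluate. With at most 3 counts in each input library, its fold is a lower bound set by 3 counts in the input library where these weigh most. By group mean CPM, the PD-L1 eluate was at least 21.1-fold higher, and the MS2 control exceeded the input at least 6.29-fold. These bounds leave out the spread and counting error of the eluates, whose lowest libraries held 13.8 CPM (PD-L1 eluate) and 3.78 CPM (MS2 control). Between the trapped groups miR-590-5p had a log2 fold change of 1.71 ± 0.45 (SE, edgeR, adjusted p of 0.00709) on these few reads. Without PD-L1 replicate 1 it was 1.56 ± 0.60 (edgeR, adjusted p of 0.0436). In the fit of all 9 libraries, miR-590-5p passed the filter on low counts only with its PD-L1 libraries counted. That call and the bound for the PD-L1 eluate are therefore no support for a rise there. With so few reads, no contrast between miR-21-5p and miR-590-5p is drawn from their shared seed.

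The 4 other most abundant miRNAs of the input were miR-100-5p, let-7i-5p, miR-92a-3p and miR-10a-5p, which took 13.2%, 6.19%, 4.51% and 3.80% of its counts. Against the input, all 5 were lower in the PD-L1 eluate, from -0.38 for miR-100-5p to -3.41 for let-7i-5p. Against the MS2 control, miR-100-5p (0.53), miR-92a-3p (0.80) and miR-10a-5p (0.94) were higher and let-7i-5p (-4.31) was lower in edgeR's test, whereas miR-21-5p (0.15) was not called. These calls were the same without PD-L1 replicate 1.

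A list of 12 other miRNAs widely described as oncogenic was read in the same way, and 10 were tested because miR-372-3p and miR-373-3p had 0 reads. From the MS2 control to the PD-L1 eluate, 4 rose, 4 fell and 2 were not called, with a median log2 fold change of 0.18, against 0.02 for all 408 miRNAs, of which 31.4% rose and 28.7% fell. miR-31-5p (3.21), miR-155-5p (1.41), miR-222-3p (1.22) and miR-182-5p (0.53) rose. The hypoxia-induced miR-210-3p (-1.10), miR-183-5p (-0.96), miR-27a-3p (-0.95) and miR-10b-5p (-0.46) fell. Against the input, 3 rose and 4 fell, beside 34.1% and 32.4% of all, with a median of 0.21 against 0.04. Without PD-L1 replicate 1 these counts were the same, with medians of 0.19 against the MS2 control and 0.04 against the input, beside -0.10 and -0.14 for all. miR-221-3p (-1.74) fell there by nearly the log2 fold change of miR-21-5p, and stood at -0.07 against the MS2 control (edgeR, adjusted p of 0.655). From the input to the MS2 control, 1 rose, 4 fell and 5 were not called, beside 32.8% and 37.0% of all, with a median of -0.13 against 0.02.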

How the data were processed

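The 9 single-end small RNA libraries fall into 3 groups by sample title. The authors deposited 1 table of raw read counts, with a row for each locus of a mature miRNA. The submitters' processing notes name cutadapt 1.18, Bowtie2 2.2.6, featureCounts 1.6.3 and hg38, and the methods name miRBase mature miRNAs as features. The 2883 locus rows were summed to 2652 names, of which 169 had several loci. Each miR-21 arm has 1 row.

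Tests used edgeR 4.0.16 in R 4.3.3 with filterByExpr, TMM factors (0.742 to 1.247) and 1 fit of 3 group means to all 9 libraries (glmQLFit, glmQLFTest, two-sided). SE is the log2 fold change over the square root of F. Arm ratios were fitted with a term per library plus arm by group, and the plotted log2 ratios of hairpins add 0.5 to each count. Both fits were first run on simulated counts with known changes. No replicate pair agreed within sampling noise. Alternatives were other scalings, DESeq2 1.42.0, limma 3.58.1, other filters, fewer groups, separate loci, a replicate block and leaving out each library. The fits of named miRNAs without PD-L1 replicate 1 were added after seeing the data. The members and lists were chosen with earlier results of these data known. Named miRNAs are the arms, miRNAs of the miR-21-5p seed, the 5 most abundant of the input, the 3 most like each arm, the 6 hairpins with most input reads and the oncogenic list. Sequences are from RefSeq (GRCh38.p14), which held 2363 of the 2652 names.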

Additional observations from a re-analysis of the deposited data

How the results depend on the processing

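Under the alternative settings, 366 values of 27 results were recomputed. Of these, 348 kept their direction and side of the threshold, or stayed within 1.5 times for counts of calls and within 1 SD for shares. The calls of miR-21-5p against the input and of miR-21-3p against the MS2 control held under each. With library totals, miR-21-3p passed the threshold against the input (1.08) and lost it between the MS2 control and the input (-0.65). The exact permutation test cannot pass the threshold and gave -1.65, -2.26 and -0.61 for the arm ratio, each with p = 0.1. The last of these was also lost with hairpins of at least 1 count in each arm (-0.61, adjusted p of 0.0842) and with only the groups compared (-0.61, adjusted p of 0.0950). Leaving out 1 library at a time, it ranged from -0.76 to -0.41. miR-21-5p against the MS2 control, which was not called, ranged from -0.05 to 0.24 and changed sign without MS2 control replicate 1 (-0.052). Without a filter, 201 miRNAs were called lower in the PD-L1 eluate than in the input, against 132. Across settings that kept all libraries, 117 to 192 were called higher and 90 to 201 lower in that comparison. From the input to the MS2 control, 115 to 199 were called higher and 104 to 208 lower. From the MS2 control to the PD-L1 eluate, 111 to 178 were called higher and 109 to 145 lower. By TMM-scaled library size the mean share of miR-21-5p was 49.3% in the input and 15.0% in the PD-L1 eluate, and that of miR-21-3p in the input was 0.0231%.

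Over all tested miRNAs, the replicate numbers did not pair the libraries. Same-numbered libraries correlated in their deviations with r from -0.20 to 0.12, and 1 of 9 pairs was over 0.1. That check does not speak for miR-21 alone. In each group, replicate 1 had the highest ratio of miR-21-5p to miR-21-3p and the lowest share of miR-21-3p. It also held the highest summed marker level of each group. A shared cause of these orders was not tested. With the replicate block, miR-21-3p passed the threshold against the input at 0.55 (edgeR, adjusted p of 0.0304), and no other call on either arm or on their ratio changed. In the same check 2 of 9 libraries correlated best with their own number. Depth limits miR-21-3p, with 93 reads in its thinnest library, and more so miR-590-5p, with 1 or 2 reads in each input library.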
